A study of Mus musculus with 6 samples.

Results

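RAW264.7 cells in medium of normal sodium were described on their own, from 3 of the 6 arrays of the series. The 3 arrays were chosen by their titles alone, and no level was set against the low-sodium medium. RAW264.7 is a line of mouse monocyte-macrophages from a tumour that Abelson murine leukaemia virus induced, and the labels call it an osteoclastic line. The cells stood for 24 h in a medium with sodium at 137 mmol/l and an osmolality of 290 mOsm/l. The other 3 arrays hold the same line at 120 mmol/l sodium, with mannitol bringing that medium to 290 mOsm/l, and they are used here only to describe how arrays of equal replicate number deviate. The protocol also names the cytokines RANKL (30 ng/ml) and M-CSF (10 ng/ml), in a wording that does not settle whether the normal-sodium cultures received them. The labels state 4 biological replicates per medium, and 3 were analysed here. All cultures are of 1 established line, so the spread below is between cultures and arrays of the same cells.

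Macrophages are kept alive by M-CSF through its receptor CSF1R, and they take up particles with scavenger and Fc receptors and degrade them in lysosomes. The osteoclast arises from the same lineage when RANKL binds RANK, the product of Tnfrsf11a. It is a large fused cell that resorbs bone by pumping acid onto the mineral with the vacuolar proton pump and by cleaving collagen with cathepsin K. RAW264.7 cells are widely used for both states, since they behave as macrophages in plain culture and fuse into osteoclast-like cells under RANKL.

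Each level below is log2(intensity + 1) of the deposited intensity, given as the mean over the 3 arrays ± SD (n = 3 cultures). Each of 18193 genes was represented by the probe set with the highest mean over these 3 arrays. No detection call was used. Receptors of smell and taste, most of which are largely restricted to sensory cells, stood in for background, although some of them are known in macrophages. The 95th percentile of 76 such chemosensory receptor genes was 6.23, an intensity of 73.9. A gene at or under that value is called near background. A gene at or above 11.36, an intensity of 2633, is called bright, which by construction holds for 10% of all genes, or 1820. A total of 7945 genes, 43.7%, were near background, and 8428 lay between. The genes nearest the bright value were Flot2 just under it and Dctn1 just above it, each at 11.36, and those nearest the background value were 4933435C09Rik under it and AA986860 above it, each at 6.23. Single genes near a boundary therefore carry no weight. A probe set's intensity also depends on its own probes, so the order of genes is an order of signals and not of RNA amounts. In RNA of a whole culture, fewer cells carrying a transcript and less of it in each cell cannot be told apart.

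**Figure D1:**
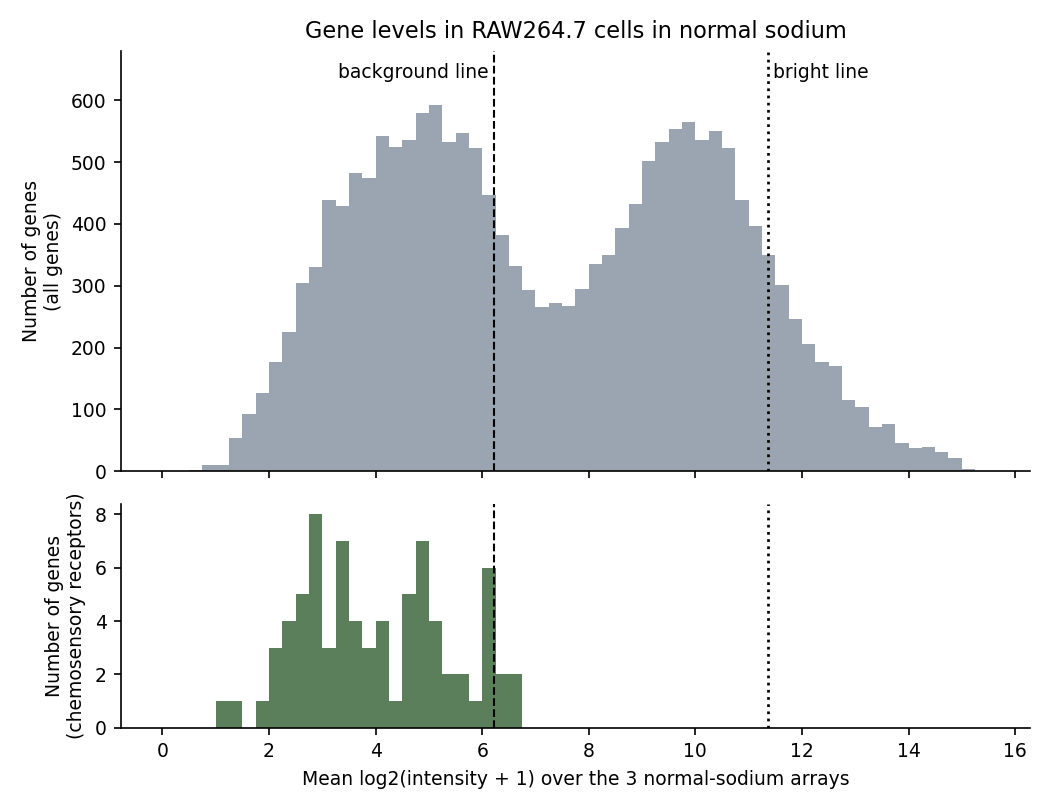
Number of genes by mean log2(intensity + 1) over the 3 normal-sodium arrays, for all 18193 genes (upper panel) and for the 76 chemosensory receptor genes that set the background line (lower panel). The dashed line marks the background line at 6.23 and the dotted line the bright line at 11.36; the distribution of all genes has a dim and a brighter hump with a dip between them, and the chemosensory receptors lie in the dim hump.

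Replicate 3 stood apart from replicates 1 and 2 in its spiked controls, as was known from earlier results of these data. The 24 probe sets of spiked Bacillus transcripts, which are added to follow the labelling, averaged 10.04 on replicate 1, 10.33 on replicate 2 and 8.36 on replicate 3. On the low-sodium replicates 1 to 3 they averaged 10.16, 10.31 and 8.36. The 18 hybridisation control probe sets averaged 12.02, 12.13 and 12.29. The median intensity over all probe sets was 70.2, 66.5 and 56.1 at the same trimmed mean on each array. Classes rested on the mean of all 3 arrays, and 97.0% of genes kept their class when replicate 3 was left out.

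The macrophage character of the cells was plain in the list of macrophage markers. Of 47 measured markers, 28 were bright, 15 lay between and 4 were near background, which is 59.6% bright beside 10% of all genes and 8.51% near background beside 43.7%. Csf1r, the M-CSF receptor, read 14.54, 14.45 and 14.55 on replicates 1 to 3 (14.51 ± 0.06), and its 3 probe sets were all bright. Cd68, a lysosomal membrane glycoprotein of macrophages, read 14.22, 14.18 and 14.35 (14.25 ± 0.09). Adgre1, which encodes the F4/80 antigen, read 11.76, 11.87 and 12.16 (11.93 ± 0.21). All 3 markers were bright on each array, and their spread was small beside their height over background.

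The other bright macrophage genes differed in spread, from Cd53, a tetraspanin, with an SD of 0.0035 to Msr1, a scavenger receptor, with 0.88. Lyz2, macrophage lysozyme, lay at 14.79 ± 0.16, and Lyz1, a near-identical copy whose transcripts the probes may share with it, at 14.98 ± 0.10. Lgals3, the lectin galectin-3, reached 14.54 ± 0.14. Tyrobp, the DAP12 adaptor that carries signals of TREM2 and related receptors, reached 14.40 ± 0.12. Spi1, which encodes the lineage factor PU.1, lay at 12.47 ± 0.01. The 4 markers near background were Vsig4, Timd4, Marco and Cd163, which are receptors of resident tissue macrophages. Marco read 2.10, 4.00 and 1.88, and Cd163 lay at 2.65 ± 1.29. None of their array values came near the background line, so the order among them means nothing. Mrc1, the mannose receptor, lay just above the line at 6.77 ± 0.91, with 6.66, 5.91 and 7.73 on the 3 arrays.

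**Figure D2:**
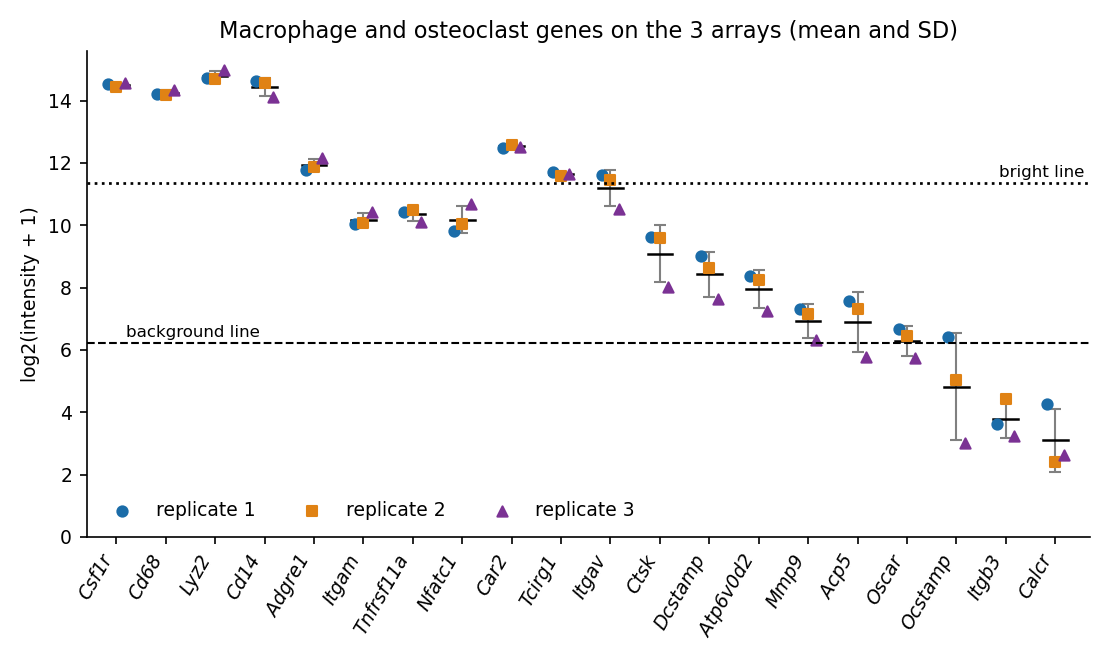
Levels of 20 macrophage and osteoclast genes, as log2(intensity + 1), on replicates 1, 2 and 3 (circles, squares and triangles), with the mean (bar) and SD (whisker) of the 3 arrays. Csf1r, Cd68, Lyz2 and Cd14 sit above 14 on every array, while Ctsk, Dcstamp, Atp6v0d2, Mmp9 and Acp5 lie between the lines with replicate 3 lowest, and Itgb3 and Calcr lie under the background line.

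Genes of the resorbing osteoclast were mixed. Of 24 measured effectors, 7 were bright, 12 lay between and 5 were near background. The shares were 29.2% bright and 20.8% near background, beside 10% and 43.7% of all genes. The bright ones were Cd9, Adam8, Car2, Cd47, Ckb, Tcirg1 and Snx10, most of which also act outside osteoclasts. Car2, the carbonic anhydrase that supplies protons, read 12.49, 12.59 and 12.51. Tcirg1, the a3 subunit that the osteoclast's proton pump uses, read 11.69, 11.60 and 11.66. For Car2 and Tcirg1 the 3 arrays lay close together, whereas Cd9, a tetraspanin, read 13.84, 13.65 and 13.14, with replicate 3 lowest.

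Genes used as signs of osteoclast formation lay lower, and replicate 3 was the lowest array for many of them. Ctsk, which encodes cathepsin K, read 9.64, 9.59 and 8.03 (9.08 ± 0.92). Acp5, which encodes tartrate-resistant acid phosphatase, read 7.58, 7.31 and 5.78 (6.89 ± 0.97), so its replicate 3 value lay under the background line. For both genes replicates 1 and 2 nearly coincided and replicate 3 lay more than a log2 unit under them. Dcstamp, a protein needed for cell fusion, read 9.02, 8.63 and 7.62. Atp6v0d2, a proton pump subunit that fusing osteoclasts use, read 8.37, 8.24 and 7.25, and Mmp9, a gelatinase, read 7.31, 7.16 and 6.30. Among the 19 effectors above background, replicate 3 was the lowest array for 11 and the highest for 6, or 57.9% and 31.6%, beside 43.9% and 44.4% of all genes above background.

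The 5 effectors near background were Mmp14, Src, Ocstamp, Itgb3 and Calcr. Calcr, the calcitonin receptor of mature osteoclasts, read 4.26, 2.41 and 2.61. Itgb3, the beta subunit of the vitronectin receptor, read 3.63, 4.44 and 3.24, and its 2 probe sets were both near background. Its partner Itgav lay at 11.20 ± 0.59, just under the bright line, although 2 of its 5 probe sets were near background. Src, the kinase of the ruffled border, lay at 5.73 ± 0.91, and Ocstamp, another fusion protein, read 6.43, 5.02 and 3.02. So 3 of the 6 markers fixed for these cells were bright (Csf1r, Cd68 and Adgre1), 3 lay between (Tnfrsf11a, Ctsk and Acp5), and the calcitonin receptor and the beta-3 integrin of the mature osteoclast were near background. Set against the label of an osteoclastic line, the precursor's receptors Csf1r and Tnfrsf11a were above background, and Calcr and Itgb3 were not. Most effectors of the resorbing cell differed from Calcr and Itgb3. Of the 24 measured, 19 were above background, Ctsk, Acp5, Car2 and Tcirg1 among them, beside 10248 of all 18193 genes. The count near background moved with the setting. It was 8 with tissue-restricted genes in place of the chemosensory receptors and 2 with the background line at the receptors' median. By the lowest probe set of each gene it was 11.

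Genes of the machinery that reads RANKL were nearly all above background. Of 34 measured genes of RANK signalling, 3 were bright, 30 lay between and 1 was near background. The bright share of 8.82% was close to the 10% of all genes, whereas 2.94% were near background beside 43.7%. In alternative settings the bright line was redrawn from the new values, again at the top 10% of genes. The bright members then numbered 5 without replicate 3. They numbered 7 with all probe sets of a gene averaged or with its lowest probe set, settings in which the line itself is lower. That count of 7 is therefore one of rank among genes and not of higher levels. Tnfrsf11a, the receptor itself, read 10.44, 10.49 and 10.11 (10.35 ± 0.20). Traf6, the adaptor that binds it, lay at 8.21 ± 0.08. Nfatc1, the factor that RANKL induces, read 9.82, 10.05 and 10.67 and was highest on replicate 3, but 1 of its 5 probe sets was near background and the mean over all 5 was 8.32. Fos, an AP-1 subunit, read 11.42, 11.33 and 11.03, and Mitf, a factor of the osteoclast and lysosome programmes, read 11.35, 11.12 and 11.03. Prdm1, which represses inhibitors of the programme, was the member near background at 4.97 ± 0.30. The measured restraints were also above background: of 15 genes listed as repressors of osteoclast formation, 2 were bright (Rbpj and Ptpn6) and 0 were near background. Their bright share of 13.3% was close to the 10% of all genes, of which 43.7% were near background. Irf8, a repressor that RANKL lowers, lay at 11.05 ± 0.15. Id1, an inhibitor of helix-loop-helix factors, read 8.23, 7.90 and 4.81 and so differed by array.

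The ligands of these receptors were dim. Tnfsf11, which encodes RANKL, read 2.59, 2.74 and 3.85, and Tnfrsf11b, its soluble decoy osteoprotegerin, read 5.47, 3.31 and 2.70. Csf1, which encodes M-CSF, lay just above the line at 7.26 ± 0.20, with 3 of its 4 probe sets near background.

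Receptors for cytokines and growth factors were unevenly filled. Of 54 measured, 5 were bright, 29 lay between and 20 were near background, shares of 9.26% and 37.0%, close to those of all genes. Beside Csf1r, the bright ones were Tgfbr2, Ifnar2, Il10rb and Csf2ra, receptors for TGF-beta, type I interferon, interleukin 10 and GM-CSF. Tgfbr2 read 12.44, 12.48 and 12.46, although 1 of its 3 probe sets was near background. Tnfrsf1a, the main TNF receptor, lay just under the bright line at 11.26 ± 0.09. The other TNF receptor, Tnfrsf1b, read 8.70, 8.89 and 10.16, and Il6ra, the interleukin 6 receptor, read 8.03, 7.70 and 9.82. In both of these genes replicate 3 was the high array. The dimmest members were Lifr, Il18r1 and Il1r1, the last of which lay at 2.96 ± 0.60. Of 35 genes of the interleukin receptor family, 22 were near background, 62.9% beside 43.7% of all genes, and 1, Il10rb, was bright.

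Pattern receptors were nearly all above background. Of 25 measured, 3 were bright, 19 lay between and 3 were near background. The bright share of 12% was close to the 10% of all genes, and 12% were near background beside 43.7%. Cd14, which hands lipopolysaccharide to TLR4, read 14.63, 14.58 and 14.11. Clec4e, a receptor for mycobacterial glycolipid, lay at 12.34 ± 0.85, and Tlr2, a receptor for bacterial lipoproteins, read 11.37, 11.44 and 11.58. Tlr4 lay at 10.60 ± 0.08 and its partner Ly96 at 8.84 ± 0.09. The members near background were Tlr5, Tlr9 and Tlr12, receptors for flagellin, unmethylated DNA and profilin. Tlr5 read 6.61, 6.98 and 5.06, Tlr9 read 6.42, 4.42 and 6.18, and Tlr12 read 6.31, 6.79 and 2.62. All 3 had arrays on both sides of the background line, so their class was not stable over arrays. Tlr5 and Tlr12 lay under the line on replicate 3 alone.

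Chemokine and purine receptors were sparse. Of 25 receptors for chemokines and other attractants, 1 was bright, 10 lay between and 14 were near background. These are shares of 4% bright and 56% near background, beside 10% and 43.7% of all genes. Cx3cr1, the fractalkine receptor, was the bright one at 11.91, 11.97 and 12.32. C5ar1 and C3ar1, the receptors for complement anaphylatoxins, lay at 10.70 ± 0.12 and 10.46 ± 0.34. Ccr2 and Ccr1, receptors of inflammatory monocytes, lay just above the line at 6.79 ± 0.29 and 6.49 ± 0.20. Of 24 purinergic, prostanoid and calcium-sensing receptors, 0 were bright, 5 lay between and 19 were near background, 79.2%. The 5 were P2ry6, P2rx4, Ptger4, P2rx7 and Ptgir. P2rx7, the ATP-gated channel linked to macrophage fusion, read 8.72, 9.11 and 9.35. Casr, the calcium-sensing receptor, read 6.97, 6.33 and 4.77 and had both probe sets near background by their means.

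Receptors for particles and immune complexes were well represented. Of 27 Fc, complement and scavenger receptors, 7 were bright, 16 lay between and 4 were near background. The shares were 25.9% bright and 14.8% near background, beside 10% and 43.7% of all genes. Cd36, a receptor for oxidised lipoprotein, read 13.90, 13.85 and 13.21, and Msr1, the class A scavenger receptor, read 12.88, 12.84 and 11.33. Replicate 3 was the low array for both, although it was the highest for 14 of the 23 members above background and the lowest for 9. Fcer1g, the common Fc receptor gamma chain, lay at 13.55 ± 0.20 and Itgb2, the beta chain of complement receptor 3, at 13.44 ± 0.16. Of 17 genes of ITAM costimulation, the costimulatory signal that osteoclast formation needs, 7 were bright, among them Tyrobp, Trem2 (12.68 ± 0.14) and Sirpa (12.55 ± 0.15). That is 41.2% bright, and 3 of the 17, 17.6%, were near background. Oscar, the osteoclast-associated receptor, read 6.66, 6.44 and 5.73 and lay at the background line.

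No nuclear receptor was bright. Of 31 measured, 14 lay between and 17 were near background, 54.8% beside 43.7% of all genes. The brightest were Rxrb (10.64 ± 0.55), Nr1d2 (10.34 ± 0.15) and the glucocorticoid receptor Nr3c1 (10.10 ± 0.17). Vdr, the vitamin D receptor, lay at 3.34 ± 1.73 and Nr3c2, the mineralocorticoid receptor, at 3.19 ± 1.52, and all probe sets of both were near background. Esr1, an oestrogen receptor, lay at 5.45 ± 0.53.

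Since the study varied sodium, the genes that move it are given next. Of 11 measured genes of the sodium pump and its FXYD regulators, 3 were bright, 2 lay between and 6 were near background. These are shares of 27.3% and 54.5% for bright and near background, beside 10% and 43.7% of all genes. Atp1b3, a beta subunit, read 13.44, 13.24 and 13.20. Fxyd5 and Fxyd2, which adjust the pump's affinity, read 13.65, 13.59 and 13.81, and 13.26, 13.23 and 13.75. The other beta subunits were dim: Atp1b1 lay at 6.87 ± 1.19 with 4 of 5 probe sets near background, and Atp1b2 at 4.57 ± 1.87. Atp1a4, a catalytic subunit known from sperm, was near background.

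Sodium-coupled exchangers, cotransporters and channels were mostly near background. Of 49 measured, 0 were bright, 16 lay between and 33 were near background, 67.3% beside 43.7% of all genes, and without replicate 3 the bright members numbered 1. Slc20a1, a sodium-phosphate cotransporter, read 11.49, 11.46 and 10.29. Slc12a2, the sodium-potassium-chloride cotransporter that sets cell volume, read 10.20, 10.13 and 9.96. Slc4a2, the anion exchanger by which osteoclasts remove bicarbonate, is in this list although not coupled to sodium, and lay at 9.59 ± 0.11. Slc8b1, the mitochondrial sodium-calcium exchanger, lay at 9.97 ± 0.10. The plasma membrane sodium-calcium exchangers Slc8a1, Slc8a2 and Slc8a3 were near background at 5.29 ± 0.45, 2.67 ± 0.41 and 4.06 ± 1.43. So were the epithelial sodium channel subunits Scnn1a, Scnn1b and Scnn1g and the kidney cotransporters Slc12a1 and Slc12a3. Among the 16 above background, replicate 3 was the lowest array for 13, or 81.2%, and for Slc20a1 by more than a log2 unit.

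Transporters of organic osmolytes and amino acids were brighter. Of 39 measured, 9 were bright, 18 lay between and 12 were near background. These are shares of 23.1% and 30.8% for bright and near background, beside 10% and 43.7% of all genes. The bright members numbered 5 with all probe sets of a gene averaged or with its lowest probe set. Slc6a6, the taurine transporter, read 12.46, 12.54 and 12.80. Slc3a2, the heavy chain of several amino acid exchangers, read 12.97, 12.97 and 12.28, and its light chain Slc7a5 read 12.31, 12.26 and 11.47. Both chains were bright and both were lowest on replicate 3. Slc38a2, which takes up small neutral amino acids with sodium, read 12.94, 12.95 and 12.28, and Slc1a5, a glutamine exchanger, read 12.64, 12.42 and 11.33. The betaine transporter Slc6a12 and the myo-inositol transporter Slc5a3, which cells induce in hypertonic medium, lay at 10.36 ± 0.30 and 10.27 ± 0.10. Nfat5, the factor that induces them, lay at 11.22 ± 0.19, while Hspa1a and Aqp1, also tonicity-responsive, were near background. In the tonicity list as a whole, 4 of 13 were bright and 3 near background, shares of 30.8% and 23.1%.

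Among 353 measured solute carriers of all families, 30 were bright, 160 lay between and 163 were near background, shares of 8.50% and 46.2% that are close to those of all genes. The bright ones included the mitochondrial ADP/ATP carriers Slc25a5 (14.36 ± 0.14) and Slc25a4 (13.01 ± 0.33) and the mitochondrial phosphate carrier Slc25a3 (14.24 ± 0.08). The lactate carriers Slc16a1 (12.81 ± 0.13) and Slc16a3 (12.47 ± 0.20) and the glucose carrier Slc2a1 (12.41 ± 0.16) were bright as well. All 3 probe sets of Slc2a1 were bright, whereas 1 of the 2 of Slc16a1 was near background.

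Metal transport genes were largely above background. Of 29 measured, 7 were bright, 20 lay between and 2 were near background. The shares were 24.1% bright and 6.90% near background, beside 10% and 43.7% of all genes. Fth1, the ferritin heavy chain, lay at 14.94 ± 0.06, while Tfrc, the transferrin receptor, read 13.56, 13.57 and 10.89. Hmox1, which frees iron from haem, read 13.14, 12.98 and 11.37, and Slc40a1, the iron exporter ferroportin, read 9.83, 9.88 and 7.77. For these 3 genes of iron handling replicates 1 and 2 nearly coincided and replicate 3 was the low array. Slc11a1, the phagosomal metal transporter NRAMP1, did not follow them and lay at 11.65 ± 0.05.

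Of 61 measured potassium, chloride and calcium channel genes, 4 were bright, 35 lay between and 22 were near background, shares of 6.56% and 36.1% beside 10% and 43.7% of all genes. The bright ones were Clic1, Clic4, Kcnn4 and Ano6. Kcnn4, the calcium-activated potassium channel of macrophages, read 12.26, 12.26 and 11.31. Trpv2 lay at 11.31 ± 0.09, and Trpv4, an osmosensitive channel, at 6.49 ± 0.69. Of 80 genes of the whole potassium channel family, 66 were near background, 82.5%, and Kcnn4 was the bright one. Of 12 aquaporins, 11 were near background and Aqp11 alone lay above it at 7.15 ± 0.31, with 2 of its 3 probe sets near background. Of 42 ABC transporters, 3 were bright, 7.14% beside 10% of all genes, and Abcc1, an exporter of glutathione conjugates, read 12.59, 12.54 and 11.77. The cholesterol exporters Abca1 and Abcg1 deviated the other way, with 7.61, 7.65 and 9.48 for Abca1 and 9.45, 9.50 and 10.54 for Abcg1.

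Lysosomal genes were widely bright. The vacuolar proton pump had 12 of 23 measured subunits bright, 7 between and 4 near background. The shares were 52.2% bright and 17.4% near background, beside 10% and 43.7% of all genes. By the lowest probe set of each gene, 8 were near background. Subunits that every cell uses were bright, such as Atp6v1a (13.11 ± 0.25), Atp6v0d1 (12.29 ± 0.28) and Atp6ap2 (13.32 ± 0.13). Those near background, Atp6v1c2, Atp6v1b1, Atp6v0a4 and Atp6v1e2, are forms known from kidney, epididymis or testis. For the B, C and E subunits, the widespread forms Atp6v1b2, Atp6v1c1 and Atp6v1e1 were bright and the restricted forms Atp6v1b1, Atp6v1c2 and Atp6v1e2 near background. Atp6v1b2 lay at 12.54 ± 0.14 and Atp6v1b1 at 4.31 ± 0.32. Clcn7 and Ostm1, the chloride-proton exchanger of the lysosome and its beta subunit, lay between at 9.33 ± 0.05 and 10.72 ± 0.27.

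Lysosomal proteases were found in all 3 classes. Of 24 measured, 12 were bright, 5 lay between and 7 were near background. The shares were 50% bright and 29.2% near background, beside 10% and 43.7% of all genes. By the lowest probe set of each gene, 6 were bright and 13 near background. Ctsb, cathepsin B, read 14.81, 14.74 and 14.81 and stood among the 40 brightest genes. Ctsd, the aspartic protease cathepsin D, read 14.40, 14.37 and 14.28, and Ctsl, cathepsin L, read 14.40, 14.38 and 14.06. Ctsz (14.37 ± 0.08), Ctss (14.21 ± 0.12) and Ctse (14.35 ± 0.08) were similar in spread. The 3 dimmest, Ctsw, Ctsq and Ctsj, belong to lymphocytes or placenta, and Ctsh, cathepsin H, was near background with both probe sets.

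The hydrolases and membrane proteins of the lysosome were nearly all above background. Of 35 glycosidases, lipases and other hydrolases, 9 were bright, 24 lay between and 2 were near background, Arsg and Rnaset2a. The shares were 25.7% bright and 5.71% near background, beside 10% and 43.7% of all genes. By the lowest probe set of each gene, 10 were near background. Lipa, the acid lipase, lay at 13.91 ± 0.07, Hexa, a hexosaminidase subunit, at 13.55 ± 0.27 and Gusb, beta-glucuronidase, at 13.34 ± 0.04. Of 37 membrane and associated proteins, 16 were bright, 43.2%, and 0 were near background. By the lowest probe set of each gene, 7 of them were near background. Grn, progranulin, lay at 14.60 ± 0.14, Gpnmb, a glycoprotein also known from osteoclasts, at 14.19 ± 0.12 and Lamp1 at 14.10 ± 0.19. Lamp2 read 12.46, 12.90 and 13.40, and all 4 of its probe sets were bright.

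Many lysosomal genes carry a short palindromic element in their promoters that the factors TFEB, TFE3 and MITF bind, known as the CLEAR element. Its core, GTCACGTG, was looked for on both strands in the 250 bases before the annotated start, in promoters taken from RefSeq on GRCm38.p6. It was 1 of 6 motifs counted and was chosen after the counts had been seen. The others were TCACGTGA, CACGTG and the 10-base palindrome that extends GTCACGTG by AC, which overlap it, and GAGGAAGT and TGACTCA. Of 14452 measured genes with a promoter in that table, 453 held GTCACGTG, 3.13%, and of the 1505 bright ones 4.85%. Of 96 genes of the proton pump and lysosome lists, 17 held it, 17.7%, and of the 39 bright ones among them 5 did, 12.8%. Of 38 macrophage markers with a promoter, 0 held it. The 10-base palindrome was in 1 of the 96 genes, 1.04% beside 0.443% of all genes, and in 0 of the 39 bright ones. For the 96 and for all genes, the shares were 11.5% and 1.32% for TCACGTGA and 27.1% and 8.73% for CACGTG. They were 3.1% and 2.8% for GAGGAAGT and 5.21% and 4.73% for TGACTCA. The 5 bright genes of these lists that hold GTCACGTG are shown, with its matches in capitals. Each sequence runs 5′ to 3′ on the gene's own strand. A match is a description of letters and no sign of binding. The regions are chr7:142387828-142388077 on the minus strand for Ctsd, chr8:13158911-13159160 on the plus strand for Lamp1, chr2:164833523-164833772 on the plus strand for Ctsa, chr12:102439093-102439342 on the minus strand for Lgmn and chr4:117887330-117887579 on the minus strand for Atp6v0b.
Ctsd: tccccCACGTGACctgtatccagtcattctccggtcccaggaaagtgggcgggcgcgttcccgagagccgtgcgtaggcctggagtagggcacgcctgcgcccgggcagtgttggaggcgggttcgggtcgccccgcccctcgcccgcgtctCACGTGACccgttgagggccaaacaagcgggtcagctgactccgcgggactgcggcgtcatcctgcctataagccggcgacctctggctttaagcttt
Lamp1: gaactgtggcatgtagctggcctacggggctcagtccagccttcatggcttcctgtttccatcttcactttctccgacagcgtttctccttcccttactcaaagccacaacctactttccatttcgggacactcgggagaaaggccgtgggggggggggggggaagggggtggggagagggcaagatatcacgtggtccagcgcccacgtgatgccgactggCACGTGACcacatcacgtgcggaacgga
Ctsa: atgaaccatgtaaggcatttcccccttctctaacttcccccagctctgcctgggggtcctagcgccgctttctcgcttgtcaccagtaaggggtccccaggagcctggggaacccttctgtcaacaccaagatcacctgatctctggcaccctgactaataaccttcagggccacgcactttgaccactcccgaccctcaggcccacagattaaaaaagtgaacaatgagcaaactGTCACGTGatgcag
Lgmn: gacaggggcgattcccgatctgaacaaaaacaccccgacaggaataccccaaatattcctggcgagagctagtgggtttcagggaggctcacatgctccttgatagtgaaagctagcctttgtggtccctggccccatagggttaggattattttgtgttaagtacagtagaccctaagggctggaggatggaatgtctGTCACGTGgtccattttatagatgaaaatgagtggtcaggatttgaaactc
Atp6v0b: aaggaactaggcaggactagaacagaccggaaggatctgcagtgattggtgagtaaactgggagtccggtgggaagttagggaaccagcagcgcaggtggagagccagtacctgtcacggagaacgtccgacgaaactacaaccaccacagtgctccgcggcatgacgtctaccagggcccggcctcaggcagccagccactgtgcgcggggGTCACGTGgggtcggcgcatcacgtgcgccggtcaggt

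In Ctsd the motif occurs at 2 places, the first of them 245 bases before the start, whereas in Ctsa the match lies 14 bases and in Lamp1 28 bases before it. Beside Ctsd and Lamp1, described above, Ctsa, the protective protein cathepsin A, read 13.81, 13.74 and 13.99, and Lgmn, the asparagine endopeptidase legumain, read 13.38, 13.34 and 13.84. Atp6v0b, a proteolipid subunit of the proton pump, read 12.85, 12.70 and 12.99. These 3 genes were bright on every array and highest on replicate 3. Tfeb and Tfe3, which bind the element, lay between at 9.48 ± 0.24 and 10.97 ± 0.13, as did Mitf.

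**Figure D3:**
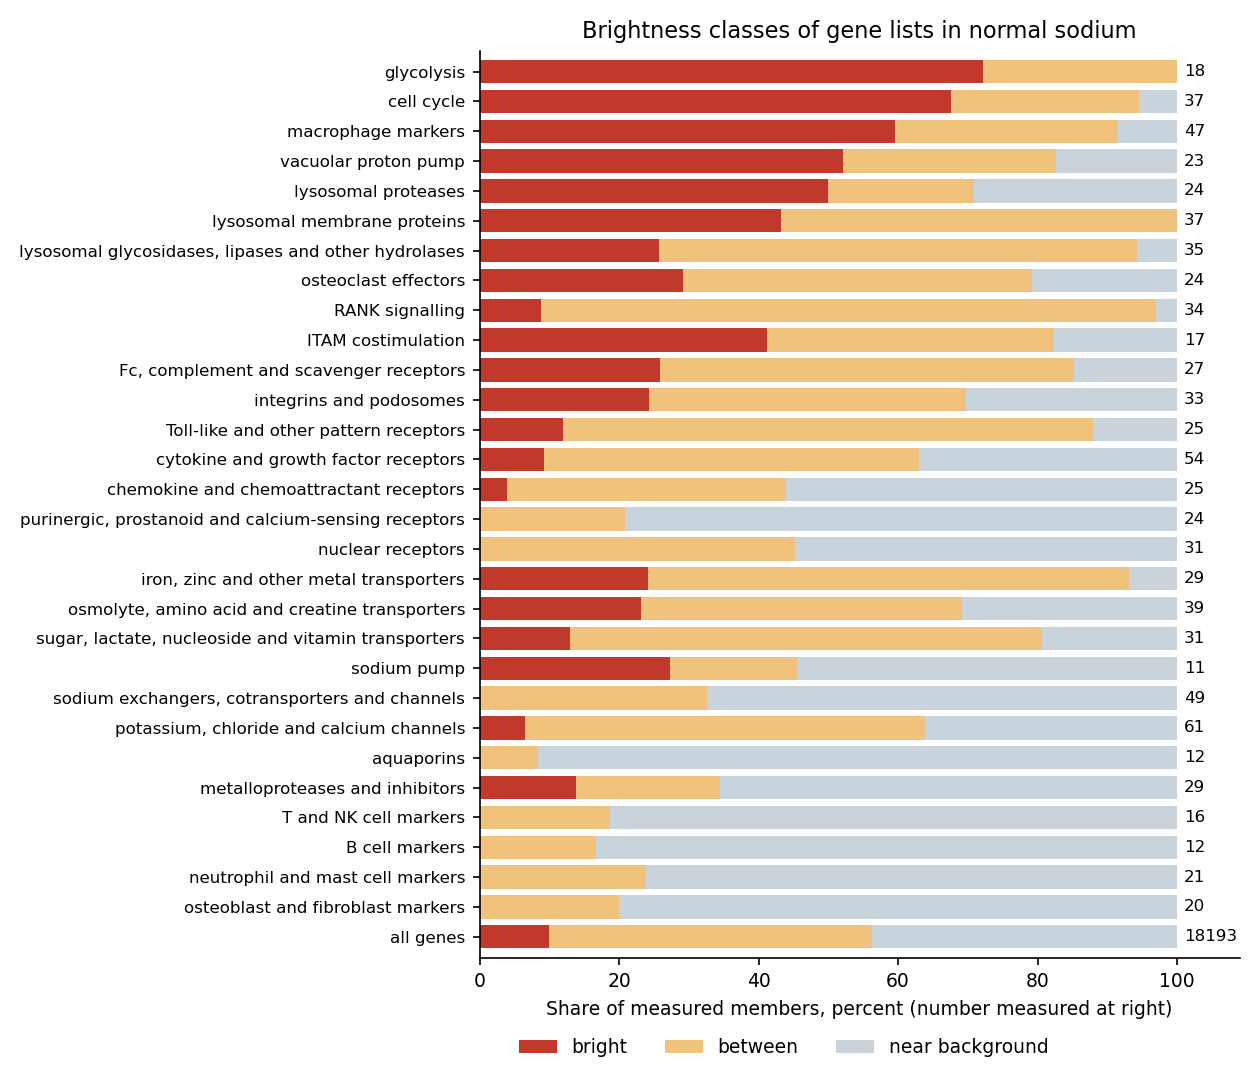
Share of the measured members of each gene list, in percent, that were bright (red), between (yellow) or near background (grey) by their mean over the 3 normal-sodium arrays, with the number measured at the right. Glycolysis, cell cycle and macrophage markers have the largest bright shares, and lysosomal membrane proteins and glycolysis have no member near background. Aquaporins and the markers shown of T, NK and B cells, neutrophils, mast cells, osteoblasts and fibroblasts are mostly near background. The dendritic cell and epithelial lists are not drawn. The bar for all 18193 genes is at the bottom.

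Of 29 metalloproteases and related genes, 4 were bright, 6 lay between and 19 were near background, 65.5% beside 43.7% of all genes. The bright 4 were the membrane sheddases Adam8, Adam17, Adam10 and Adam9, and every measured MMP apart from Mmp9 and Mmp24 was near background. Mmp12, macrophage elastase, read 2.93, 3.01 and 3.91. Adam8 read 13.12, 13.11 and 11.58, and replicate 3 was the lowest array for 9 of the 10 members above background.

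Of 57 measured chemokine and cytokine ligands, 6 were bright, 23 lay between and 28 were near background, shares of 10.5% and 49.1% that are close to those of all genes. Mif read 14.60, 14.54 and 14.85, but 2 of its 3 probe sets were near background. Ccl9, a CCR1 ligand, read 13.87, 13.78 and 13.96, and Igf1 read 13.94, 13.89 and 13.05. Ccl3, an inflammatory chemokine, read 12.55, 12.36 and 11.12, and Tnf read 9.70, 9.97 and 7.84. For 22 of the 29 ligands above background, 75.9%, replicate 3 was the lowest array. Il6 (1.64 ± 1.54), Il1a (3.02 ± 0.76), Il12b (4.82 ± 0.36) and Il10 (5.09 ± 0.29) were near background, and Il1b lay just above it at 6.53 ± 0.21.

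Effector enzymes were divided between bright and near background. Of 28 measured, 10 were bright, 4 lay between and 14 were near background. The bright share was 35.7% beside 10% of all genes, and 50% were near background beside 43.7%. Cyba and Cybb, the membrane subunits of the phagocyte oxidase, lay at 13.94 ± 0.14 and 13.72 ± 0.15, and its cytosolic subunits Ncf1 and Ncf4 at 13.43 ± 0.08 and 12.24 ± 0.24. Lpl, lipoprotein lipase, lay at 14.49 ± 0.16. Nos2, Arg1, Retnla and Chil3, enzymes and lectins of activated macrophages, were near background at 2.75 ± 0.21, 3.04 ± 0.76, 3.25 ± 1.39 and 3.45 ± 1.04. Apoe, which macrophages often make in quantity, read 5.50, 2.80 and 3.41 on its 1 probe set.

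The 40 brightest genes, leaving out clone and predicted names, held 23 cytosolic ribosomal proteins and lay between 14.66 and 15.09. Eef1a1, the elongation factor, led at 15.09 ± 0.14, followed by Rpl38 (15.04 ± 0.12) and Rps29 (15.02 ± 0.04). Beside lysozyme and Ctsb they included Actb, Vim, Fth1, Ldha, Pgk1, Tmsb4x, Cst3, Hspa8 and Mif. The SD of the 40 ran from 0.035 to 0.279. Replicate 3 was the highest array for 39 of them, Hspa8 being the exception.

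The synthetic and energy-producing machinery of the cells was bright as groups. Of 50 cytosolic ribosomal proteins, 39 were bright, 78% beside 10% of all genes, and 4 were near background, 8% beside 43.7%. Of the latter, Rps16, a protein of every ribosome, read 1.25, 2.13 and 1.12 on its 1 probe set, so a class is read here as a statement about a probe set. Of 90 respiratory chain genes, 70 were bright, 77.8%, and of 47 proteasome genes 31, 66.0%. Glycolysis had 13 of 18 bright, 72.2%, and 0 near background, led by Ldha (14.92 ± 0.15), Pgk1 (14.77 ± 0.11) and Aldoa (14.65 ± 0.25). The cell cycle list had 25 of 37 bright, 67.6%, with Pcna, the replication clamp, at 14.42 ± 0.03, Mki67 at 12.93 ± 0.15 and Cdk1 at 12.78 ± 0.04.

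Markers of most other cell types were sparse. Near background were 13 of 16 markers of T and NK cells, 10 of 12 of B cells, 16 of 21 of neutrophils and mast cells, 16 of 20 of osteoblasts and fibroblasts, and 16 of 19 of epithelium, endothelium and erythroid cells. The shares ran from 76.2% to 84.2%, beside 43.7% of all genes. With the background line at the median of the chemosensory receptors, these counts were 5, 1, 4, 5 and 5, beside 2929 of all 18193 genes. No member of these 5 lists was bright. Cd3e, Cd79a, Mpo, Col1a1 and Cdh1 were among the members near background. Other members lay above it, such as Cd8a (6.48), Pax5 (6.76), Csf3r (7.83), S100a8 (6.74), Acta2 (7.42), Sp7 (6.94), Krt8 (6.85) and Kdr (6.54). Zap70, a T cell kinase, also lay above background and read 7.53, 9.41 and 8.95, with 2 of 3 probe sets near background. Ighm, the immunoglobulin mu chain, read 8.76, 8.96 and 11.20 with 8 of 11 near background. Epcam lay at 7.82 ± 0.71 with 1 of 2 near background. The intensities of the B cell list summed to 957 and 961 on replicates 1 and 2 and to 2785 on replicate 3, the array on which Ighm was high. The sums for T and NK cells were 787, 1220 and 859, for neutrophils and mast cells 1098, 1209 and 1128, for osteoblasts and fibroblasts 1025, 995 and 768, and for the epithelial list 1086, 989 and 707. What part such cells or transcripts have in any level above was not tested.

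The spread between the 3 arrays was narrower for brighter genes. The median SD was 0.752 for genes near background, 0.222 for those between and 0.154 for bright genes. An SD above 1 occurred in 2879 genes near background, in 141 between and in 3 bright ones. Among the 10248 genes above background, replicates 1 and 2 differed by a median of 0.10 log2 units, whereas replicate 3 differed from each of them by 0.315. Across these genes Pearson's r was 0.991 between replicates 1 and 2, 0.956 between 1 and 3 and 0.957 between 2 and 3; the genes of an array share its labelling and scaling and are no independent replicates. Replicates 1 and 2 agreed within 2-fold for 99.3% of genes, and replicate 3 with them for 92.6% and 93.2%. Replicate 3 was the array farthest from the middle value for 67.7% of these genes, and replicate 1 for 16.7%. The median SD of 0.208 over genes above background was 0.0709 with replicate 3 left out.

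**Figure D4:**
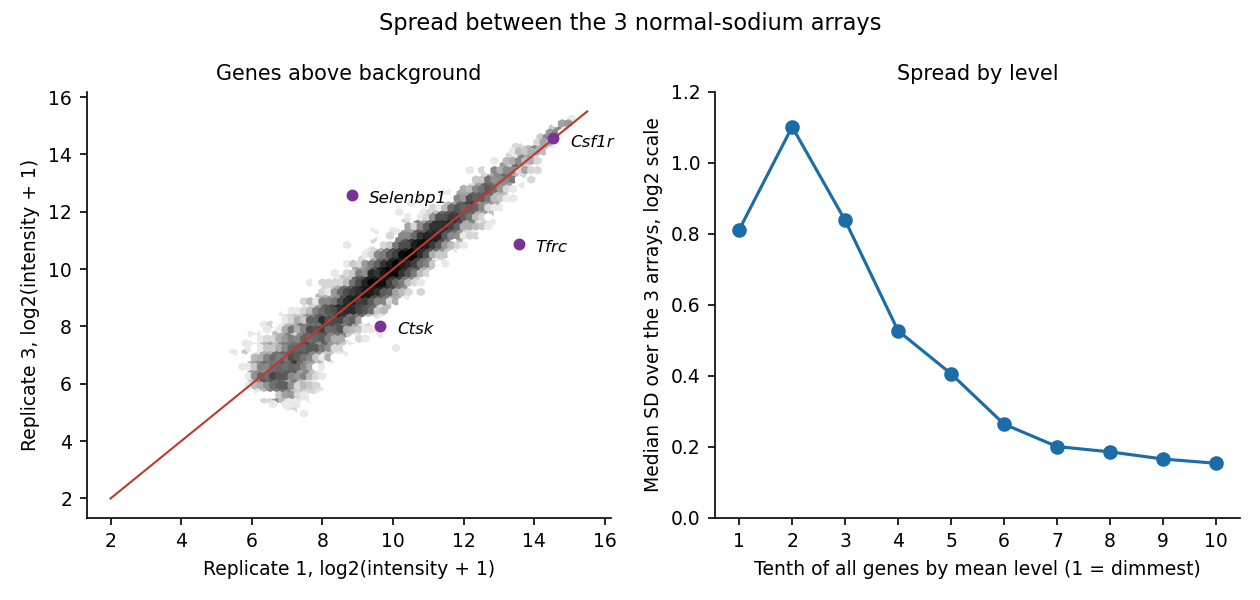
Left, log2(intensity + 1) on replicate 3 against replicate 1 for the 10248 genes above background (darker cells hold more genes, on a log colour scale; the line marks equal values), with 4 genes named. Right, the median SD over the 3 arrays for each decile of all genes by level, which is 1.10 in decile 2 and 0.154 in the brightest decile.

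The deviation of replicate 3 differed from gene to gene and with the level. Its median was -0.36 in decile 4 of all genes by level and 0.07 in the brightest decile. Replicate 3 lay at least 1 log2 unit above the mean of replicates 1 and 2 in 259 genes above background, 2.53%, and at least 1 unit below it in 411, 4.01%. Replicates 1 and 2 lay that far apart in 71. It was the highest array for 44.4% of genes above background and the lowest for 43.9%, a balance that the scaling of each array to the same trimmed mean bears on. Beside these shares it was highest for 40 of 46 cytosolic ribosomal proteins, 76 of 86 respiratory chain genes, 64 of 76 mitochondrial ribosomal proteins and 29 of 43 macrophage markers above background. It was lowest for 19 of 27 metal transporters, 17 of 27 osmolyte and amino acid transporters and 112 of 190 solute carriers. The spiked labelling controls, which were also lower on this array, are no part of the cells; their part in the deviations was not tested.

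Among genes at or above the median level, Selenbp1, a selenium-binding protein, deviated most upward, with 8.84, 8.90 and 12.59. Mxd4, an antagonist of MYC proteins, read 7.10, 6.80 and 9.94, and Ccng2, a cyclin of resting cells, read 9.28, 9.29 and 12.06. Cytip, Adm, Hacd4, Tsc22d1, Tcp11l2, Trp53inp1, Selenop, Ms4a6b and Pirb completed the 12 most raised. In the other direction Il17re, a receptor subunit for interleukin 17C, read 9.22, 9.26 and 5.36, with 2 of its 3 probe sets near background. Il13ra2, the interleukin 13 decoy receptor, read 9.29, 9.02 and 6.01, and Fosl1, an AP-1 subunit, read 8.39, 8.62 and 5.52. Slc7a11, the cystine transporter, read 9.38, 9.19 and 6.43. Spink5, Chac1, Sec14l3, Dmwd, Tfrc, Hs3st2, Egr1 and Abtb2 completed the 12 most lowered. In 23 of these 24 genes the values of replicates 1 and 2 lay within 1 unit of each other, Pirb being the exception.

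The low-sodium arrays were not used to choose these genes, and their own replicate 3 deviated in the same direction for most of them. Of 207 genes at or above the median level with replicate 3 higher by at least 1 in normal sodium, 85.0% had replicate 3 above the mean of replicates 1 and 2 in low sodium, with a median deviation of 0.93 after 1.26 in normal sodium. Of 250 genes lower by at least 1, 7.2% lay above it, with a median of -1.02 after -1.24. Over all 9097 genes at or above the median level the share was 48.9%. Mxd4 deviated by 2.99 and 2.85 in the 2 media, and Fosl1 by -2.99 and -2.94. Acp5 was an exception, with -1.66 in normal and 0.54 in low sodium, while Ctsk deviated by -1.59 and -2.65.

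**Figure D5:**
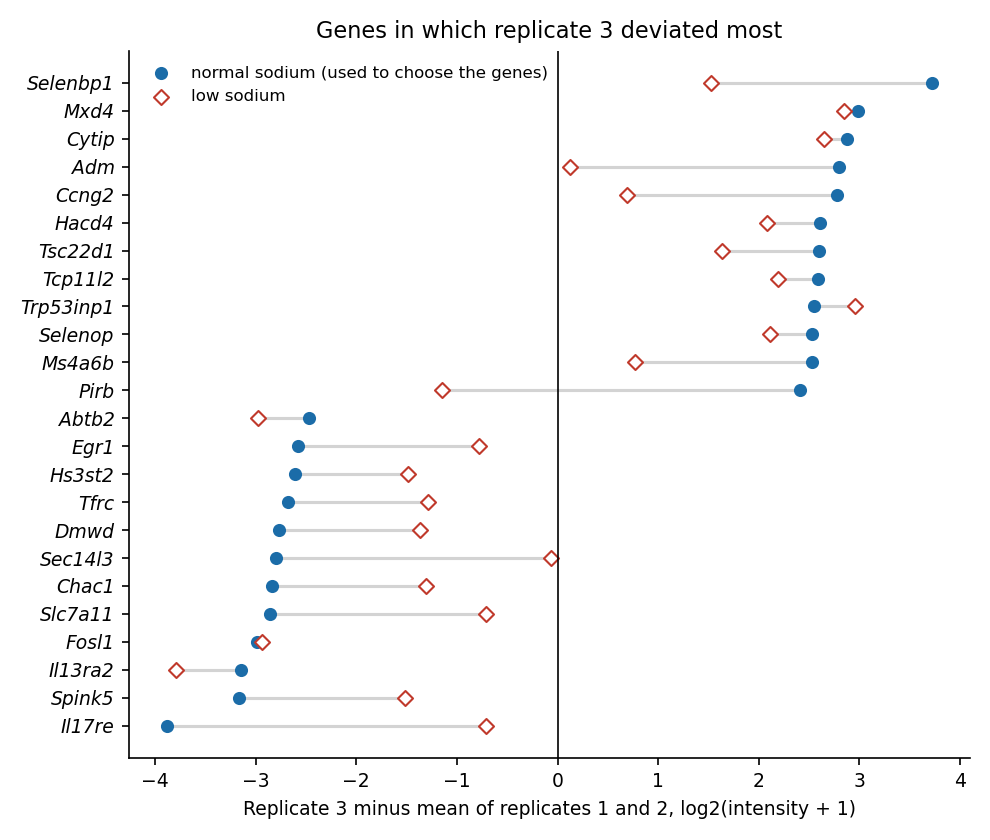
Replicate 3 minus the mean of replicates 1 and 2, as log2(intensity + 1), for the 12 genes with the largest and the 12 with the smallest value in normal sodium (filled circles, which chose the genes) and for the same genes in low sodium (open diamonds). Of the 12 raised genes 11 lie above 0 in low sodium, Pirb at -1.15 being the exception, and all 12 lowered genes lie below 0 there, Sec14l3 only by 0.06.

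Replicates 1 and 2 disagreed in few genes. The widest gaps were in Tm9sf4 (8.80 and 10.80), Cracr2b (7.69 and 5.70), Zap70 and Tcl1b3 (10.10 and 11.97). Clip4, Rpl41, Pirb and Nlgn2 followed. For Rpl41, a ribosomal protein, replicate 2 read 13.54 beside 14.79 and 15.01 on replicates 1 and 3.

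Genes with several probe sets bound how far a class can be read. Of 9010 such genes, 3200 had a chosen probe set above background and another near background, and so did 407 of the 1270 bright ones. Examples among the genes described were Ctsl, Fxyd2, Tgfbr2, Mif, Adam10 and Slc16a1, bright by 1 probe set or more and near background by another.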

How the data were processed

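Affymetrix mouse arrays were run with biotin-labelled RNA of RAW264.7 cultures, per the labels' protocols. The authors deposited 1 linear intensity per probe set and array, scaled so that the trimmed mean between percentiles 2 and 98 is the same on each. The submitters' processing notes list Partek; how probes were summarised is not given in these sources. Of 45101 probe sets, 64 controls were left out, 34945 were annotated to 1 gene, 932 to several and 9160 to none in GEO's platform annotation. Symbols were updated by Entrez ID in RefSeq GRCm38.p6, which held 34754. Levels are log2(intensity + 1), computed with Python 3.11.15, numpy 2.4.6 and pandas 2.3.3 and tested on simulated data. Nothing was tested between groups. Per-array depth has no meaning for arrays; their number, 3, limits the precision.

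Members and gene lists were chosen with earlier results of these data known. Of 1128 listed symbols in 39 lists, 1034 matched measured genes, 1033 in all; the others were not analysed here. A further 11 families were taken by symbol. Genes named were the 40 brightest, the markers, the 3 brightest and 3 dimmest of each list and members completing a complex. Among genes at or above the median, the 12 most raised and 12 most lowered on replicate 3, and the 8 with replicates 1 and 2 farthest apart, were named as well. Other list members were named where their role is the subject.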

Additional observations from a re-analysis of the deposited data

How the results depend on the processing

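The class counts depend most on where the lines are drawn. With the background line at the median of the chemosensory receptors, 2929 genes in place of 7945 were near background, and with the bright line at the 75th percentile, 4549 in place of 1820 were bright. The median SD was 0.348 with no filter on dim genes in place of 0.208, and it ran from 0.0709 to 0.221 as each replicate was left out, the lowest being without replicate 3. Both lines were redrawn from the values of each setting. Of the bright listed genes, 188 in all, 133 remained bright when all probe sets of a gene were averaged. By the lowest probe set 113 remained bright and 35 were near background. Another pseudocount, quantile normalisation and median centring changed the class of at most 1 of 1033 listed genes each. The replicate 3 deviations recurred in low sodium under quantile normalisation too, with 88.1% and 7.87% above 0. No paired analysis was possible because the levels come from 1 group and no test. Dim probe sets limit the rest: under the background line an absent transcript and a poor probe cannot be told apart.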

Other observations

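Among genes outside the lists, Mycn, a MYC-family factor better known from embryonic and neural tissue, was among the 40 brightest, with 14.70, 14.62 and 14.84 on the 3 arrays and all 3 of its probe sets bright. Its relatives were dim: Myc read 6.89, 6.52 and 5.54, and Mycl, with 3 of 3 probe sets near background, read 5.10, 4.51 and 5.10. The cell cycle inhibitors Cdkn2a (3.42 ± 1.86) and Cdkn2b (3.75 ± 0.50) were the cell cycle genes near background.

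Cd74, the invariant chain of MHC class II, was the bright dendritic cell marker, with 12.14, 12.11 and 13.37. The class II chains that it accompanies did not share this level: H2-Aa read 6.34, 6.81 and 5.39, H2-Ab1 read 5.18, 5.44 and 1.62, and the class II activator Ciita read 6.40, 5.70 and 5.83. The intensities of the dendritic cell list summed to 7651, 7726 and 14781. The complement genes C1qa, C1qb and C1qc read highest on replicate 3, at 6.40, 7.81 and 7.45, each with at least 1 other array at or under 4.90.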
